A study of Homo sapiens with 54 samples.

Results

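Estradiol (E2) was compared with vehicle in 22Rv1, a human prostate cancer cell line. The members were all expressed genes in 6 of the 54 libraries of the series, 3 from cells given 100 nM E2 for 12 h and 3 from cells given ethanol, chosen by their labels and not by any measured value. The file listed 19225 features, of which 14866 reached 1 CPM (1 read per 1000000) in at least 3 of the 18 22Rv1 libraries and were tested. The series measured total RNA in 3 lines (LNCaP, C4-2 and 22Rv1), each in 6 groups of 3 libraries described as biological triplicates: vehicle, E2 (100 nM), Enza (enzalutamide, 1 µM), OSU-ERb-12 (100 nM), and E2 or OSU-ERb-12 with Enza. The series' title names the functions of ER-beta in prostate cancer as its subject. All groups were labelled with the genotype WT and were grown in RPMI medium with fetal bovine serum, which itself contains steroid hormones. Each line is 1 established line, and the cells were treated in culture without the stroma of a tumour. Besides the 6 libraries, the 22Rv1 groups Enza and E2 with Enza and the vehicle and E2 groups of LNCaP and C4-2 were used for comparison. One vehicle library of C4-2 carries the cell line tag of 22Rv1 and was kept in C4-2 by its title. The treatment label of the group of OSU-ERb-12 with Enza names WT (100 nM) with enzalutamide and not OSU-ERb-12. It was read as OSU-ERb-12 because the titles of the libraries labelled OSU-ERb-12 carry WT too.

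E2 is the natural ligand of the estrogen receptors ER-alpha and ER-beta, which are transcription factors that bind DNA and change the transcription of nearby genes once a ligand is bound. Other steroid hormones work through receptors of the same family, and androgens are known to drive the kallikrein genes of luminal prostate cells. Enzalutamide is an antiandrogen used against prostate cancer. 22Rv1 came from a relapsed prostate cancer xenograft. OSU-ERb-12 was developed as a selective ER-beta agonist.

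The 6 libraries held between 37222868 and 45101954 reads in genes, so that 1 read was worth 0.021 to 0.0249 CPM, and the depth of the whole series ran from 32819568 to 52417050 reads. Log2 CPM correlated at 0.9965 to 0.9975 across genes between libraries of a group and at 0.9905 to 0.9936 between libraries of different groups. Luminal markers were all above 1 CPM (9 of 9, summed at 1918 to 1959 CPM with vehicle and 2115 to 2172 CPM with E2). Of the defining markers of basal, neuroendocrine, fibroblast and leukocyte cells, the basal keratins KRT14 and KRT6A lay at or near 0, and the summed levels of the markers of the other classes (CHGA and SYP for neuroendocrine cells) were at most 7.12 CPM in any of the 6 libraries. A wider neuroendocrine list summed to 168.7 to 173 CPM with vehicle and 168.6 to 177 CPM with E2, nearly all of it ENO2, a neuronal enolase that the list of hypoxia and glycolysis also holds (159.8, 164 and 163 CPM with vehicle and 168, 168 and 160.1 CPM with E2). In bulk RNA fewer cells of a kind and less RNA per cell cannot be told apart. The groups differed in composition: the effective library size that the deposited values imply was 1.08 to 1.12 times the total reads in the vehicle libraries and 1.04 to 1.06 times in the E2 libraries, and 519 to 569 features were at 0 reads with vehicle against 621 to 676 with E2. Mitochondrial transcripts took 3.78 to 4.22% of the reads with vehicle and 3.15 to 3.44% with E2, and mitochondrial rRNA took 0.196% in vehicle library 3 and 0.0084 to 0.0646% in the other 5.

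E2 changed many genes, most of them little. With limma on log2(CPM + 0.5) and a Benjamini-Hochberg adjusted p under 0.05, 4118 of 14866 genes (27.7%) were called: 2540 were higher (17.1%) and 1578 lower (10.6%), and the median log2 fold change of all genes was 0.03. Only 81 of the called genes differed by 2-fold or more, 65 of them higher and 16 lower, and 2224 differed by less than 1.2-fold. A second test asked for each gene whether its change went beyond 1.2-fold, and 293 genes passed (1.97%), 207 higher (1.39%) and 86 lower (0.579%). In each of the 293 genes the 3 vehicle libraries and the 3 E2 libraries did not overlap, against 6653 genes (44.8%) among all those tested. Just inside the 1.2-fold test lay ATMIN (log2 fold change 0.43) and just outside it KLF4 (0.56), whose libraries varied more.

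Which small changes were called, and how many of them were higher or lower, rested on how the libraries were scaled. At the effective sizes of the deposited values 61.7% of the called genes were higher, at total reads 32.1% (1007 higher and 2131 lower), at TMM sizes of the 22Rv1 libraries 54.3% (2179 and 1836) and after cyclic loess 45.4% (1365 and 1642). No called gene was called in the opposite direction under another scaling, but of the 1750 genes called higher with a change under 1.2-fold, 268 (15.3%) were called under all 4 scalings. Of the 474 called lower by less than 1.2-fold, 453 (95.6%) were. All 81 genes with a change of at least 2-fold were called in the same direction under all 4 scalings, as were 304 of the 343 between 1.5-fold and 2-fold. Over all sizes 2106 genes (14.2%) held under the 4 scalings, 949 higher (6.38%) and 1157 lower (7.78%). The set beyond 1.2-fold counted 281 to 309 genes over the scalings, with 168 higher and 141 lower at total reads, and 166 of the 207 higher and 68 of the 86 lower genes passed this test under all 4. It counted 233 to 283 genes when each of the 6 libraries was left out in turn, whereas the count of all called genes was 2193 when vehicle library 1 was left out, 2598 when E2 library 1 and 2565 when E2 library 2 was.

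**Figure D1:**
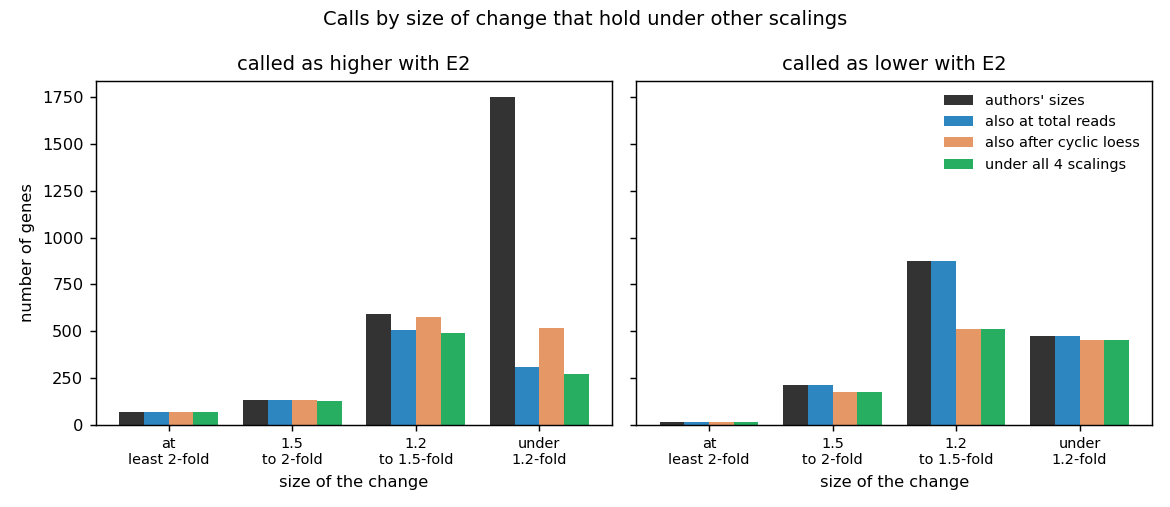
Number of genes called with E2 against vehicle (vertical axis) by the size of the fold change (horizontal axis), higher in the left panel and lower in the right. Bars give the calls at the sizes of the deposited values and those also called at total reads, after cyclic loess and under all 4 scalings; of 1750 genes higher by less than 1.2-fold, 268 reach the last bar, and all 65 and 16 of at least 2-fold do.

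The small changes followed the level of the genes. Ranked by mean CPM, which also grows with transcript length, the lowest 10% of the genes (median 1.14 CPM) had a median log2 fold change of -0.17 and the highest 10% (median 192 CPM) one of 0.12. In the lowest group 42 genes were called higher and 175 lower, and in the highest 603 and 87. At total reads the medians of these groups were -0.22 and 0.05, and after cyclic loess, which levels such a trend by construction, -0.01 and 0.02. Between E2 with Enza and Enza alone the same groups had medians of -0.05 and 0.01. Of 868 long noncoding RNAs 29 were higher and 150 lower, and of 442 transcribed pseudogenes 10 and 78, against 2483 and 1286 of 13192 protein-coding genes. Whether the larger number of genes without reads in the E2 libraries, or the smaller ratio of effective size to total reads in them, has a part in these medians was not tested.

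**Figure D2:**
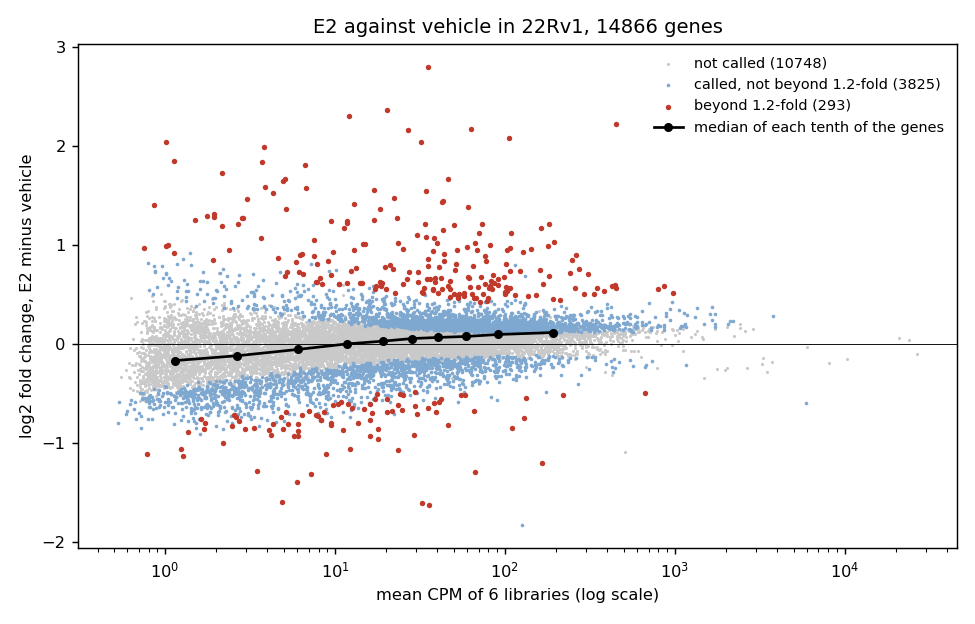
Log2 fold change of E2 against vehicle (vertical axis) against the mean CPM of the 6 libraries (horizontal axis, log scale), 1 point per gene for 14866 genes. Red points mark the 293 genes beyond 1.2-fold and blue points the 3825 other called genes; the black line joins the medians of 10 equal groups of genes by level and runs from -0.17 to 0.12.

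The 14 leading genes that rose included receptors, transporters, enzymes and secreted proteins. CHRNA2, an alpha subunit of nicotinic acetylcholine receptors, stood at 8.24, 8.09 and 9.09 CPM in the vehicle libraries and 62.0, 62.3 and 60.7 CPM in the E2 libraries. The groups lay far apart, and the log2 fold change was 2.79 ± 0.08 (SE), adjusted p = 3.69e-21. TMCC3, a membrane protein of the endoplasmic reticulum, had 6.44, 6.20 and 6.21 CPM with vehicle and 34.8, 33.1 and 35.4 CPM with E2, a log2 fold change of 2.36 ± 0.08. SLC38A4, which carries neutral amino acids into cells, had 3.65, 4.05 and 3.57 CPM with vehicle and 19.8, 20.7 and 20.8 CPM with E2 (2.30 ± 0.12 on the log2 scale). In each of these genes every E2 library exceeded every vehicle library, as the choice of the leading genes required. MBOAT2, which adds acyl chains to lysophospholipids, had 21.4, 22.5 and 23.8 CPM with vehicle and 102, 105 and 102 CPM with E2 (2.17 ± 0.07). DOCK8, an exchange factor for small GTPases, had 9.76, 9.30 and 9.48 CPM with vehicle and 43.0, 43.3 and 46.6 CPM with E2 (2.16 ± 0.08), and the overlapping antisense gene DOCK8-AS1 rose too (1.28 ± 0.17), so reads of the pair may be split if counting did not use the strand. SLC45A3, or prostein, a transporter-like protein of prostate epithelium, had 39.0, 38.1 and 42.9 CPM with vehicle and 179, 175 and 156 CPM with E2 (2.08 ± 0.06).

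Other leading genes were low with vehicle. PGC encodes the stomach protease precursor progastricsin, which the prostate also makes, and had 0.0721, 0.0867 and 0.107 CPM with vehicle and 2.46, 1.61 and 1.75 CPM with E2. Its log2 fold change on the log2(CPM + 0.5) scale was 2.04 ± 0.20, which understates the ratio of such low levels. THSD7A, a membrane protein with thrombospondin repeats, likewise went from 0.0961, 0.217 and 0.3 CPM to 2.12, 1.61 and 2.40 CPM (1.85 ± 0.21). F3, or tissue factor, which starts blood coagulation, had 1.06, 1.45 and 1.2 CPM with vehicle and 5.85, 6.10 and 7.13 CPM with E2 (1.98 ± 0.15). PGC, THSD7A and PDE3A reached 1 CPM in 4 to 6 of the 6 libraries of 22Rv1 with E2 and in 0 of the 12 without it, so they were tested only because of the groups in which they are high. This holds for 9 of the 207 genes higher beyond 1.2-fold, and 3 of the 86 lower ones were tested only because of the groups without E2, LINC00639 and ADH1B among them. AKAP12, a scaffold for protein kinase A, rose by 2.04, the chloride and bicarbonate exchanger SLC26A3 by 1.84, the ISG15 ligase HERC5 by 1.80 and the phosphodiesterase PDE3A by 1.72 on the log2 scale, with adjusted p-values between 1.54e-16 and 4.92e-08. HERC5 belongs to the interferon-stimulated genes, of which 10 others were tested and 1 (ISG15, 0.18) was called higher, under none of the other 3 scalings.

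**Figure D3:**
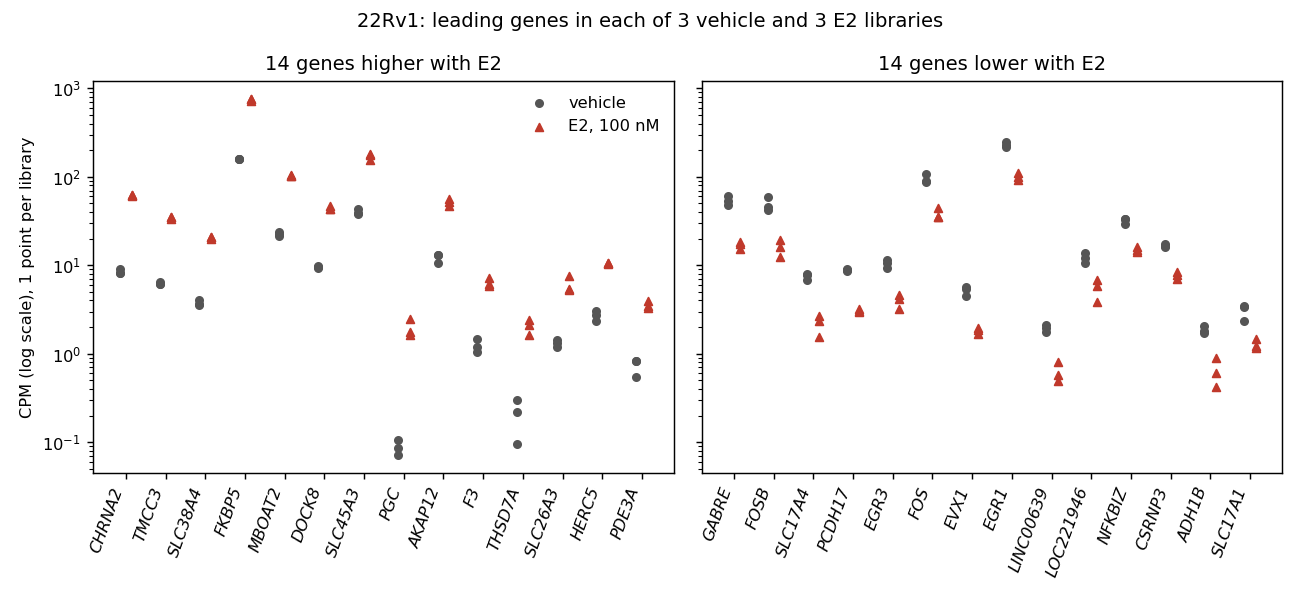
CPM (vertical axis, log scale) of the 14 leading genes that rose (left) and the 14 that fell (right) in each of 3 vehicle libraries (grey circles) and 3 E2 libraries (red triangles). The circles and triangles do not overlap in these 28 genes, which were chosen on that condition.

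The kallikreins, secreted serine proteases of luminal prostate cells that androgens are known to induce, rose with E2. KLK2 had 27.4, 26.4 and 26.5 CPM in the vehicle libraries and 58.7, 61.5 and 60.1 CPM in the E2 libraries, a log2 fold change of 1.15 ± 0.06 (SE), adjusted p = 2.36e-14. KLK3, which encodes prostate-specific antigen, had 11.4, 9.04 and 8.28 CPM with vehicle and 20.7, 22.3 and 16.3 CPM with E2 (1.01 ± 0.11 (SE), adjusted p = 7.25e-08). KLK4 rose less, from 139.7, 139 and 141 CPM to 236, 222 and 216 CPM (0.68 ± 0.05). No vehicle library of the 3 genes reached its lowest E2 library, as in every gene higher beyond 1.2-fold. KLK2 and KLK3 are close copies, and reads that fit both could be split between them. The 2 promoters are shown because both genes rose and their windows, from -200 to -121 bases of the RefSeq transcription start (GRCh38.p14, plus strand, chr19:50873239-50873318 and chr19:50854715-50854794, upstream of the first exon), hold the same match, in capitals, to a relaxed androgen receptor element GNACANNNNGTNC, a loosened string that is not a palindrome.
KLK2: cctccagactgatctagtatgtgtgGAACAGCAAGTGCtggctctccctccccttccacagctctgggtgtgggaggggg
KLK3: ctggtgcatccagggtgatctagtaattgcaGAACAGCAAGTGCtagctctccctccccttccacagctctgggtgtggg
The match began 175 bases before the start of KLK2 and 169 bases before that of KLK3, and 66 of 74 aligned bases of the windows were identical (89.2%). Windows from 250 bases before to 50 bases after the start were searched on both strands. This motif occurred in 298 of 11480 tested genes that have a window (2.6%). It occurred in 9 of 160 genes higher beyond 1.2-fold (5.62%) and in 0 of 58 lower ones. The 9 include the neighbours C2orf76 and DBI, CMC2 and CENPN, and KLK2 and KLK3. Neighbours can share a site, and KLK2 and KLK3 are close copies, so the 9 are not independent. The full androgen receptor element, of which this motif is a loosened form, occurred in 0 of the 11480 windows. Whether 5.62% differs from 2.6% was not tested. The estrogen response element GGTCANNNTGACC occurred in 3 of 11480 windows (0.0261%) and in 1 of the 160, that of PRR16. A match describes letters in the window and not binding.

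Androgen-activated genes were mostly higher. Of 50 listed genes 47 were tested, 38 were called higher and 0 lower (background 17.1% and 10.6%), and 0 were lower with voom or at an unadjusted p under 0.05. Their median log2 fold change was 0.68 against 0.03 over all genes, 34 were called under all 4 scalings and 25 were beyond 1.2-fold. FKBP5, a co-chaperone of steroid receptors, had 160.2, 158 and 161 CPM with vehicle and 755, 718 and 762 CPM with E2 (2.22 ± 0.05 (SE), adjusted p = 4e-24). TMPRSS2, a membrane serine protease, rose by 0.62 ± 0.08 and GREB1, a coregulator named both as an estrogen and an androgen target, by 0.69 ± 0.08. The metalloreductases STEAP1 (1.66 ± 0.06) and STEAP2 (1.12 ± 0.05), the fatty acid ligase ACSL3 (1.17 ± 0.05) and PMEPA1, a TGF-beta feedback inhibitor (1.2 ± 0.07), were also beyond 1.2-fold. Members that were not called included ABCC4 (0.02), SORD (0.08) and ALDH1A3 (-0.20). Among genes that androgens are known to repress, the glucuronosyltransferase UGT2B15 (-0.65 ± 0.09) and the receptor tyrosine kinase MET (-0.50 ± 0.07) fell. UGT2B15 has a near-identical neighbour, UGT2B17 (-0.41, not called), so its reads are uncertain.

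Genes that glucocorticoids and androgens both induce formed a further group: 11 of 15 were higher and 2 lower (17.1% and 10.6% of all genes), with a median of 0.80. Of the 15, 8 were beyond 1.2-fold. Besides FKBP5 they included KLF9, a transcription repressor, with 9.33, 10.1 and 9.99 CPM with vehicle and 24.5, 25.1 and 22.5 CPM with E2 (1.25 ± 0.08). ERRFI1, an inhibitor of the EGF receptor, had 19.9, 20.4 and 20.6 CPM with vehicle and 46.7, 46.6 and 49.6 CPM with E2 (1.21 ± 0.06). The zinc finger factor ZBTB16 rose by 0.98 and the clock gene PER1 by 0.96. The kinase SGK1 (0.82), TSC22D3 (0.80), CEBPD (0.91) and NFKBIA (0.68) were higher as well. BCL6 (-0.24) and CRISPLD2 (-0.31) were lower, and the metallothioneins MT2A (0.20) and MT1X (0.26) were not called. FKBP5, ERRFI1, SGK1 and TSC22D3 also stand in the androgen-activated list, so the lists are not independent.

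Among transport and lipid genes the large changes were those of single members of each pathway. The counts are set beside the 10% of genes by level that holds each list's median. There 21.8% were higher and 8.61% lower for the transporters, and 40.6% and 5.85% for fatty acid synthesis. For phospholipid remodelling the shares were 16.3% and 9.95%, and for polyamine metabolism 33.8% and 6.46%. Of 17 amino acid transporters 6 were higher and 2 lower with a median of 0.09, and 2 were beyond 1.2-fold: SLC38A4 and SLC43A1, which carries large neutral amino acids, with 3.25, 2.90 and 3.21 CPM with vehicle and 9.21, 11.2 and 10.6 CPM with E2 (1.58 ± 0.10). Of 13 genes of fatty acid synthesis 4 were higher, below the share at their level, and 0 lower (0 at an unadjusted p under 0.05, 0 with voom). At total reads the counts were 3 and 2, and after cyclic loess 3 and 4. The large changes were those of ACSL3 and the elongase ELOVL5 (0.99 ± 0.05), while FASN (-0.07), ACACA (-0.13) and SCD (0.15) were not called. Of 11 genes of phospholipid remodelling 3 were higher, led by MBOAT2 and the phospholipase PLA2G4A (0.69 ± 0.12), and 5 without E2 library 3. In polyamine metabolism 6 of 10 were higher, AMD1 (0.58 ± 0.05), which supplies decarboxylated S-adenosylmethionine, and SAT1 (0.54 ± 0.12), which acetylates polyamines, the most, and 3 were higher without E2 library 1 or without E2 library 2.

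The 14 leading genes that fell included 4 immediate early genes, described further on, and 10 others. GABRE, the epsilon subunit of GABA-A receptors, had 60.6, 52.6 and 48.4 CPM in the vehicle libraries and 15.4, 17.5 and 18.4 CPM in the E2 libraries (-1.62 ± 0.11 (SE), adjusted p = 7.56e-12). SLC17A4, an organic anion transporter, had 8.03, 7.67 and 6.78 CPM with vehicle and 2.66, 2.37 and 1.54 CPM with E2 (-1.59 ± 0.13), and its overlapping neighbour SLC17A1 fell by 1.00 on the log2 scale. PCDH17, a protocadherin of cell contacts, had 8.87, 9.10 and 8.54 CPM with vehicle and 2.96, 3.06 and 3.17 CPM with E2 (-1.39 ± 0.11). The groups were separate in all 3, again as the choice required. EVX1, a homeobox factor next to the HOXA cluster, had 5.36, 5.61 and 4.45 CPM with vehicle and 1.94, 1.85 and 1.66 CPM with E2 (-1.28 ± 0.11). The long noncoding RNA LINC00639 (-1.12 ± 0.18), LOC221946 (-1.11 ± 0.20), the nuclear NF-kappa-B regulator NFKBIZ (-1.07 ± 0.07), CSRNP3 (-1.06 ± 0.08) and the alcohol dehydrogenase ADH1B (-1.06 ± 0.17) completed the 10. One further transcript fell by more than 2-fold without passing the 1.2-fold test, the mitochondrial rRNA RNR1 (-1.83 ± 0.60, adjusted p = 0.0246), and without vehicle library 3, the library high in mitochondrial rRNA, it was no longer called (-0.70, adjusted p = 0.293).

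Other genes beyond 1.2-fold are given by what their products do, chosen after their values were seen and without a test of any group. Transcription factors that rose included MAF, with 1.03, 1.13 and 0.599 CPM with vehicle and 2.91, 3.15 and 2.88 CPM with E2 (1.31 ± 0.17), KLF15 (1.22 ± 0.09), KLF5 (0.95 ± 0.05), ATOH8 (1.27 ± 0.14) and the retinoic acid receptor RARB (0.84 ± 0.09). Those that fell included EBF2 (-0.89 ± 0.17) and HOXA13 (-0.81 ± 0.10). Among genes of metabolism, PDK4, which blocks pyruvate oxidation, had 16.9, 20.5 and 19.9 CPM with vehicle and 41.0, 40.6 and 42.2 CPM with E2 (1.10 ± 0.08). The acyl-CoA dehydrogenase ACADL rose by 1.01 ± 0.08, the carnitine octanoyltransferase CROT by 0.68 ± 0.04 and the isomerase ECI2 by 0.62 ± 0.06. Genes of cell adhesion and axon guidance went both ways. CDH2, or N-cadherin, had 35.5, 38.2 and 41.2 CPM with vehicle and 20.2, 19.9 and 19.8 CPM with E2 (-0.92 ± 0.07). Its groups did not overlap, like those of every gene beyond 1.2-fold. CDH6 (-0.59 ± 0.07), PCDH19 (-0.62 ± 0.06), the adhesion molecules CHL1 (-0.82 ± 0.09) and AMIGO2 (-0.96 ± 0.07), the netrin receptor UNC5C (-0.87 ± 0.11) and the ephrin receptor EPHA7 (-0.51 ± 0.06) fell too, while the protocadherin PCDH20 (1.02 ± 0.06) and the adhesion molecule NRCAM (0.73 ± 0.12) rose. The GABA-A receptor subunit GABRQ fell like GABRE (-0.92 ± 0.12). With Enza in both arms CDH2 changed by -0.99 ± 0.07, CHL1 by -0.88 ± 0.09 and PDK4 by 0.77 ± 0.08.

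Immediate early genes, transcription factors and signalling genes that are switched on within minutes of a growth stimulus, were lower with E2 alone. Of 20 tested 11 were lower and 1 (KLF6, 0.28) higher (10.6% and 17.1% of all genes), with a median of -0.40. All 12 calls held under the 4 scalings, and 5 were lower beyond 1.2-fold. EGR1, a zinc finger factor, had 245, 230.4 and 216 CPM in the vehicle libraries and 92.1, 98.5 and 110.2 CPM in the E2 libraries (-1.2 ± 0.08 (SE), adjusted p = 2.43e-12). FOS, a subunit of AP-1, had 107, 88.2 and 89.8 CPM with vehicle and 35.2, 35.3 and 44.8 CPM with E2 (-1.29 ± 0.09). FOSB had 58.8, 45.6 and 41.8 CPM with vehicle and 12.4, 15.9 and 19.1 CPM with E2 (-1.60 ± 0.15). No E2 library reached a vehicle library in these genes, nor in EGR3 (-1.31 ± 0.14) and the matricellular gene CCN2 (-0.71 ± 0.13), as in every gene lower beyond 1.2-fold. JUN (-0.20), JUNB (-0.24), IER2 (-0.22), DUSP1 (-0.45), NR4A2 (-0.48) and CCN1 (-0.57) were lower by less, and ATF3 (0.01) and NR4A1 (0.06) were not called. MYC was not called at the deposited sizes (-0.15, adjusted p = 0.0557) and was called lower under the other 3 scalings (-0.25 to -0.17). The promoter of EGR1 is shown because this gene fell and its window (-130 to -51, GRCh38.p14, plus strand, chr5:138465349-138465428, upstream of the first exon) holds 2 CArG boxes in capitals, the sites that serum response factor binds, starting 105 and 83 bases before the transcription start.
EGR1: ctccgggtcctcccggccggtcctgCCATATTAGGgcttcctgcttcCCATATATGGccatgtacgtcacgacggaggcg
A CArG box occurred in 167 of 11480 windows of tested genes (1.45%) and, beyond 1.2-fold, in 4 of 160 genes higher and in 1 of 58 genes lower, which was EGR1.

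Of the 10 leading genes that fell outside the immediate early list, 9 were also called lower by E2 when Enza was present in both arms, and of the 4 immediate early genes 1 was. Among all genes 3.83% were called lower in that comparison. LINC00639 and ADH1B, which count among the 9, were tested only because of the groups without E2, so their direction there is partly set by the filter. The exception among the 10 was LOC221946, which fell by 1.11 on the log2 scale alone and had -0.20 with Enza (adjusted p = 0.647). By limma's test of the difference itself LOC221946 was not called (0.91 ± 0.28, adjusted p = 0.16). That difference was called in 0 of the 10 and in all 4 immediate early genes, against 63 of all 14866 genes (0.424%). The estimate for EGR1 (0.92 ± 0.11) was close to that for LOC221946, which had the larger SE. The 14 were chosen for a large fall in the vehicle and E2 libraries that enter the difference, which favours a smaller fall with Enza. Levels in all 6 groups of 22Rv1 are given for 4 of the 14. EGR1 stood at 126, 112 and 152 CPM with Enza, 112, 107 and 99.3 CPM with E2 and Enza, 209.8, 214 and 237 CPM with OSU-ERb-12 and 117, 116 and 135 CPM with OSU-ERb-12 and Enza. It was thus low in every group with E2 or Enza, and the OSU-ERb-12 libraries fell in or near the range of the vehicle libraries. FOS stood at 65.8, 50.5 and 55.2 CPM with Enza and 73.4, 59.6 and 57.3 CPM with both, groups that overlapped. PCDH17 stood at 11.1, 10.6 and 11.4 CPM with Enza, 3.84, 3.78 and 4.73 CPM with E2 and Enza and 8.14, 10.3 and 10.7 CPM with OSU-ERb-12. EVX1 had 6.54, 6.67 and 6.08 CPM with Enza and 1.95, 2.07 and 2.25 CPM with both. In these 2 genes the groups with E2 were low and all groups without it were high. The comparison of Enza with vehicle uses the same vehicle libraries, and its log2 fold changes were -0.83 for EGR1, -0.73 for FOS, 0.30 for PCDH17 and 0.30 for EVX1.

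**Figure D4:**
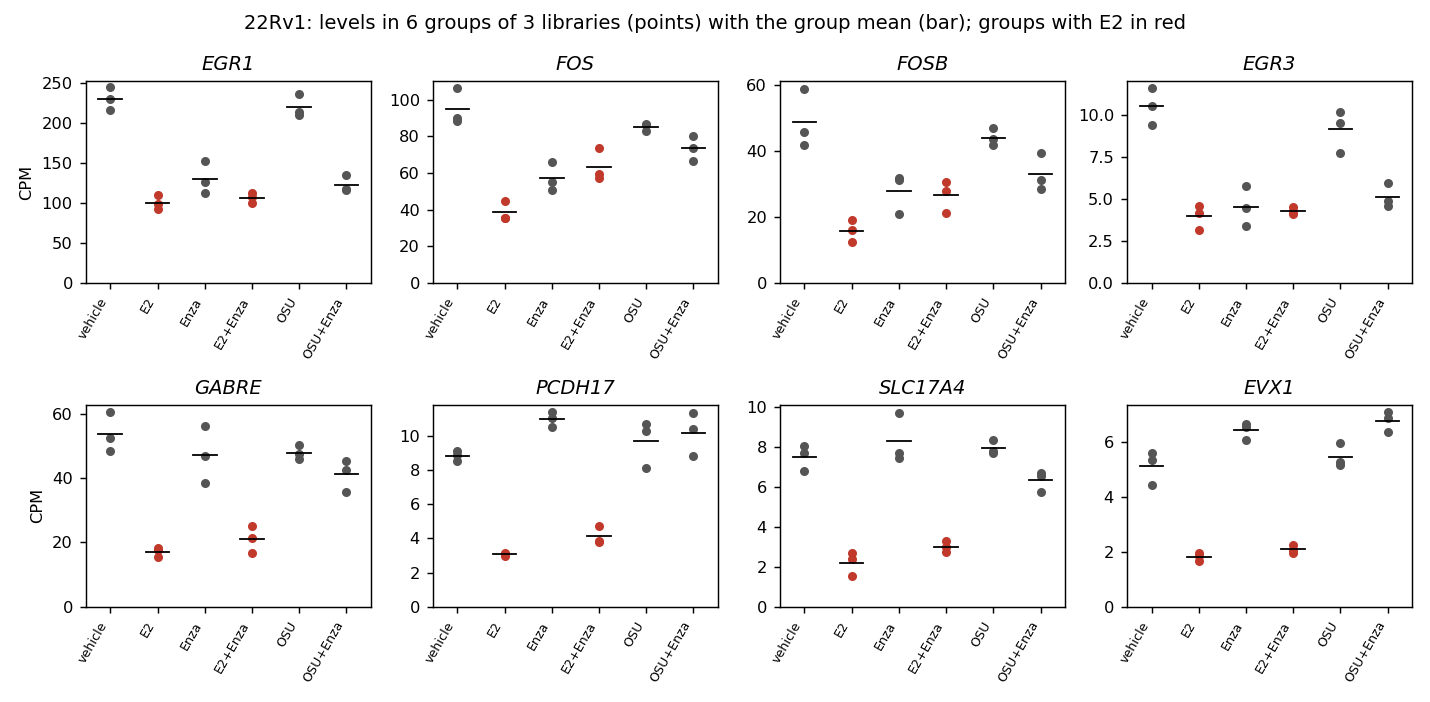
CPM (vertical axes, linear and starting at 0) of 8 genes in the 6 groups of 22Rv1 (horizontal axis), 1 point per library with the group mean as a bar and the groups with E2 in red. EGR1, FOS, FOSB and EGR3 (upper row) are low with E2 and also with Enza; GABRE, PCDH17, SLC17A4 and EVX1 (lower row) are low in the 2 red groups.

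Whether the large changes recurred in other libraries was examined with Enza present in both arms. These 6 libraries do not enter the fold change of E2 against vehicle, but they shared its filter and its estimate of spread. For 9 of the 207 genes higher beyond 1.2-fold, the filter was passed only through libraries with E2. For 3 of the 86 lower ones it was passed only through libraries without E2. The direction of these genes here is partly set by the filter. E2 with Enza against Enza alone called 1180 of 14866 genes (7.94%), 611 higher (4.11%) and 569 lower (3.83%). Of the 207 genes higher beyond 1.2-fold 206 had the same sign there, 194 were called higher and 0 lower, and of the 86 lower genes 84 had the same sign, 67 were called lower and 0 higher. The median log2 fold change of the higher genes was 0.57 with Enza and 0.77 without, and that of the lower genes -0.56 and -0.77. Since the genes were chosen for their change without Enza, the larger values there are a description. CHRNA2 rose by 3.28 ± 0.08 with Enza, MBOAT2 by 2.78 ± 0.07, FKBP5 by 1.89 ± 0.05 and KLK2 by 1.39 ± 0.06. Of the genes higher by less than 1.2-fold, 1490 of 1750 kept their sign and 129 (7.37%) were called higher, against 7581 of 14866 genes (51%) with a value above 0. Of those lower by less than 1.2-fold 386 of 474 kept their sign and 106 were called lower.

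**Figure D5:**
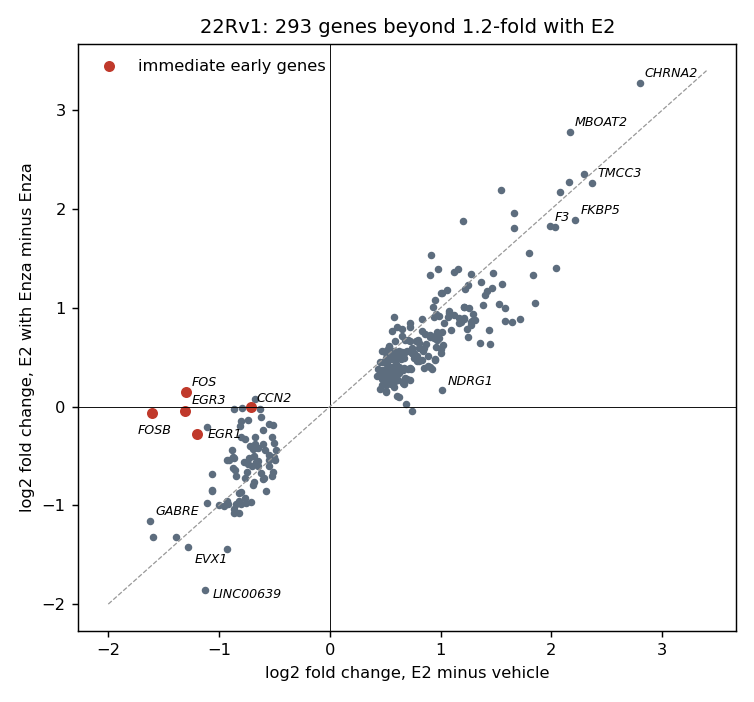
Log2 fold change of E2 with Enza against Enza (vertical axis) against that of E2 against vehicle (horizontal axis) for the 293 genes beyond 1.2-fold without Enza; the dashed line marks equal values. Red points are the 5 immediate early genes of the set, which lie between -0.28 and 0.15 on the vertical axis, while GABRE, EVX1 and LINC00639 lie below -1.

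The difference between the E2 effects with and without Enza was tested directly over the 12 libraries. It was called in 63 genes (0.424%), of which 34 were among the 293, and 12 of these kept their call under all 19 other settings tried. The 293 were chosen for a change in the vehicle and E2 libraries that enter this difference, so the count of 34 is partly set by that choice. These 12 were taken up after their values were seen. FOS differed by 1.44 ± 0.13 (SE), adjusted p = 2.75e-07: E2 changed it by -1.29 alone and by 0.15 with Enza. FOSB (1.54 ± 0.21) and EGR1 (0.92 ± 0.11) differed in the same way, and EGR3 too (1.26 ± 0.20), its call being lost in 1 setting (adjusted p = 0.05002). With E2 and Enza against Enza, EGR1 was still lower (-0.28 ± 0.08, adjusted p = 0.0243). Among genes that rose, NDRG1, a stress and androgen target, rose by 1.01 without and 0.16 with Enza, a difference of -0.85 ± 0.09 (SE), adjusted p = 1.04e-06. The insulin-like growth factor binder IGFBP3 changed by 0.74 and -0.04, the water and glycerol channel AQP3 by 1.44 and 0.64, and the acyl-CoA binder DBI by 1.44 and 0.77. TSC22D1, NAT1 and GCLC rose less with Enza as well, by 0.41, 0.64 and 0.38 against 0.89, 1.36 and 0.73. Among genes that fell, SNX32, a sorting nexin, changed by -0.79 alone and -0.02 with Enza, and the microRNA host gene MIR17HG by -0.68 and 0.08, differences called in 13 and 12 of 20 settings. MBOAT2 and PMEPA1 rose more with Enza, by 2.78 and 1.88 against 2.17 and 1.2. KLK2 (difference 0.24 ± 0.09, adjusted p = 0.237), KLK3 (0.14 ± 0.16, 0.701) and GABRE (0.47 ± 0.16, 0.212) were not called. The count of 63 was the least stable: it was 350 without Enza library 3 and 335 without library 3 of E2 with Enza, 81 without E2 library 3, 52 without vehicle library 3, and between 21 and 35 without any other of the 12 libraries.

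Some of the 293 genes were neighbours. Of the 290 with a RefSeq position, 58 had another gene of the set within 100 kb, giving 42 pairs, of which 36 had both genes higher, 5 both lower and 1 opposite signs. These pairs were taken up after their values were seen, and pairs of overlapping genes can share reads. How often tested genes in general have such a neighbour or share its sign was not counted, so these numbers only describe the set. As 207 of the 293 were higher, pairs with both genes higher are favoured, and 1 group of neighbours, such as that of DOCK8, can give several pairs. On chromosome 7 STEAP1 and STEAP2 rose with CFAP69 (0.62). On chromosome 9 DOCK8 lay beside FOXD4 (1.55) and ZNG1A (0.84), both of which have near-identical copies elsewhere. On chromosome 8 CHRNA2 stood with PTK2B (0.61), TRIM35 (0.43), EPHX2 (0.55) and CLU (0.56). FKBP5 was 2941 bases from ARMC12 (1.29), and PGC 488 bases from the lysosomal regulator TFEB (0.95). CMC2 and CENPN, 329 bases apart, rose by 0.56 and 0.58, and the homeobox genes DLX1 and DLX2 by 1.17 and 0.87. Among genes that fell, EVX1 lay 42711 bases from HOXA13 (-0.81). The opposite pair was MYO1A (0.61) and LRP1 (-0.68).

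The same dose and time were set against each other in the other lines. In LNCaP E2 called 2900 of 16026 genes (18.1%), higher in 9.86% and lower in 8.24%, and of the 22Rv1 genes beyond 1.2-fold 144 of 207 were called higher and 11 lower there, and 32 of 86 were called lower and 0 higher. In C4-2, a derivative of LNCaP, it called 1037 genes (6.47%; 3.02% higher and 3.45% lower), and 97 and 3 of the 207 and 13 and 3 of the 86 were called in the same and the opposite direction. At total reads the balance of these counts turned, to 1081 higher and 2201 lower in LNCaP and 472 and 315 in C4-2, where 571 were higher and 439 lower after cyclic loess. The C4-2 count was 647 without the vehicle library with the conflicting tag and 574 without E2 library 3. The difference of the effects was tested next, for genes chosen in 22Rv1, so the direction of these counts is partly set by that choice. Of the 207 higher genes 120 rose more in 22Rv1 than in LNCaP and 21 less (1797 genes called in all, 11.2%, with a positive difference in 6.83% and a negative one in 4.39%), and 177 rose more than in C4-2 and 1 less (4615 called, 28.8%, with 19.4% positive and 9.42% negative). Of the 86 lower genes 47 fell more than in LNCaP and 1 less, and 72 fell more than in C4-2 and 0 less. Part of these genes were near 0 in the other line: of the 86, 38 in LNCaP and 48 in C4-2 did not reach 1 CPM in 3 of its 6 vehicle and E2 libraries, and they gave 28 of the 47 and 40 of the 72. Of the 207, 29 and 33 did not, and they gave 24 of the 120 and 29 of the 177. For such genes the difference is mostly the 22Rv1 change alone. The balance of all differences depended on the scaling as well: from LNCaP 807 were positive and 857 negative after cyclic loess, and from C4-2 1070 and 1867 at total reads and 1357 and 1494 after cyclic loess. The count of 4615 was 2937 at total reads, 2851 after cyclic loess, 3051 without 22Rv1 vehicle library 1, 2455 without E2 library 3 of C4-2 and 3084 without the C4-2 vehicle library with the conflicting tag.

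Single genes showed how the lines differed. FKBP5 rose by 2.22 in 22Rv1, 2.56 in LNCaP and 1.43 in C4-2, and SLC38A4 by 2.30, 3.65 and 1.53, most in LNCaP. STEAP1 changed by 1.66, 0.23 and 0.31. The difference from each line was called for all of these (adjusted p between 4.08e-22 and 0.00603). Tissue factor F3 had 0 to 8 reads in the LNCaP libraries and 0 reads in all 6 of C4-2, which allows up to 3 reads or 0.0773 CPM, so an E2 effect on it could not be measured there. DOCK8 (2.16, 2.60 and 1.67) did not differ by this test from LNCaP (22Rv1 minus LNCaP -0.44 ± 0.26) or from C4-2 (0.49 ± 0.26). FOS changed by -0.16 in LNCaP and -0.08 in C4-2 and EGR1 by -0.08 and -0.05, each different from 22Rv1, but both genes were low there, FOS at 0.785 to 1.40 CPM and 0.331 to 0.679 CPM and EGR1 at 1.26 to 2.27 CPM and 0.455 to 1.29 CPM.

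Lists of abundant genes changed by little, and these are the changes that the scaling touches. Of all genes in the highest 10% by level 40.6% were called higher, and of the next 10% 33.8%, so a list of abundant genes is to be read against these shares and not against 17.1%. In the unfolded protein response, which raises the folding capacity of the endoplasmic reticulum, 15 of 16 genes were called higher and 0 lower (0 with voom and at an unadjusted p under 0.05), with a median of 0.25, and 10 of the 15 under all 4 scalings. DNAJB9 (0.43 ± 0.06), CRELD2 (0.37 ± 0.05), HERPUD1 (0.35 ± 0.04) and the chaperone HSPA5 (0.30 ± 0.06) were among them and none of the 16 was beyond 1.2-fold. With Enza in both arms 6 of the 16 were called higher. Replication-dependent histone genes, near-identical copies whose reads can be shared, were higher in 22 of 23 cases (median 0.28), 11 of them under all scalings and 14 without vehicle library 1. Genes of the G1/S transition and DNA replication were higher in 19 of 26 cases (median 0.18), 8 under all scalings. CCNE2, a cyclin of the G1/S transition, had 42.8, 46.3 and 43.8 CPM with vehicle and 59.4, 62.8 and 63.1 CPM with E2 (0.48 ± 0.05) and was beyond 1.2-fold. Of 20 genes of G2 and mitosis 8 were higher, near the share of all genes of such levels, 4 of them under all scalings and 5 without vehicle library 1, and MKI67 (-0.10) and TOP2A (-0.04) were not called.

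Other lists rested on the scaling. Their counts are again set beside the 10% of genes by level that holds each list's median. There 33.8% were higher and 6.46% lower for cholesterol synthesis and for hypoxia and glycolysis. For the chaperones, the ribosomal proteins and the mitochondrial mRNAs the shares were 40.6% and 5.85%, and for the ATF4 response 21.8% and 8.61%. Of 23 genes of cholesterol synthesis and uptake 13 were called higher (median 0.17), 3 of them at total reads, 3 after cyclic loess and 8 without vehicle library 1 or vehicle library 2. Of 18 genes of hypoxia and glycolysis 9 were higher and 1 lower, with 3 higher at total reads and 5 without vehicle library 1 or E2 library 2, NDRG1 being the member beyond 1.2-fold. Of 10 steroid receptor chaperones 5 were higher, 3 without vehicle library 1, and 1, FKBP5, held under all scalings. Of 14 genes of the ATF4 amino acid response 6 were higher, 2 under all scalings, and 2 or 3 without vehicle library 1, E2 library 1 or E2 library 2. Of 40 cytosolic ribosomal protein genes 6 were higher, below the share at their level, and 0 after cyclic loess. The count was 16 without E2 library 3 and 0 or 1 without any of the other libraries except vehicle library 3. No member was called under all 4 scalings. Mitochondrially encoded mRNAs had a median of -0.25 over 13 genes and none was called by limma (0 higher and 3 lower at an unadjusted p under 0.05, 2 lower with voom), while 5 were lower at total reads and 7 after cyclic loess.

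The receptors ESR2 and NR3C1 were not called, and estrogen targets went both ways. ESR2, which encodes ER-beta, had 2.04, 2.60 and 2.29 CPM with vehicle and 2.29, 1.97 and 1.68 CPM with E2, overlapping groups (-0.18 ± 0.16, adjusted p = 0.408). The glucocorticoid receptor NR3C1 was at 24.3, 24.6 and 22.8 CPM and 20.9, 21.9 and 24.4 CPM (-0.09 ± 0.07). PGR and TFF1, textbook estrogen targets, did not reach the level for testing. Of 14 tested estrogen-activated genes of 19 listed, 5 were higher and 2 lower (17.1% and 10.6% of all genes), with a median of 0.12 against 0.03. GREB1, the member beyond 1.2-fold, CA12 (0.43 ± 0.06), XBP1 (0.21), CTSD (0.17) and CCND1 (0.17) rose and PDZK1 (-0.54 ± 0.16) and RERG (-0.54 ± 0.19) fell. Of these 7 calls 3 held under all scalings, and 3 of the 5 higher ones without vehicle library 1, vehicle library 2, E2 library 1 or E2 library 2.

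Luminal and signalling lists were mixed. Among all genes 17.1% were higher and 10.6% lower. In the highest 10% by level, which holds the median level of the luminal list, the shares were 40.6% and 5.85%. Of 17 luminal prostate genes 8 were higher and 5 lower: besides the kallikrein KLK3 and TMPRSS2, the keratins KRT19 (0.58) and KRT18 (0.38) rose, while ACP3, prostatic acid phosphatase, fell (-0.49 ± 0.11) with GATA2 (-0.28), GATA3 (-0.23) and FOLH1 (-0.20). Of 11 feedback genes of TGF-beta and BMP signalling 5 were lower, among them BAMBI (-0.65 ± 0.15) and SMAD6 (-0.39 ± 0.08), and PMEPA1 was higher. All 6 calls held under the 4 scalings, and 3 of the 5 lower genes were called without vehicle library 2, without vehicle library 3 or without E2 library 1. Feedback genes of ERK signalling were higher in 3 and lower in 3 of 16 cases, with PHLDA1 at 0.67 ± 0.09 and DUSP6 at -0.30 ± 0.09, and lower in 1 without vehicle library 2 or vehicle library 3. Of 10 WNT feedback genes SOX9 (0.79 ± 0.06) and LEF1 (0.25) were higher and RNF43 (-0.49) and LGR5 (-0.41) lower. Of these calls 1 higher and 1 lower held under all scalings, LEF1 being lost at each of the other 3 and LGR5 after cyclic loess, and 1 and 1 were called without vehicle library 1 or E2 library 1. Of 10 ErbB receptors and ligands 1 was higher and 3 lower, EGFR (-0.28 ± 0.05) among them, and 1 lower without vehicle library 1, vehicle library 2 or E2 library 2. Of 20 p53 targets 4 were higher, CDKN1A by 0.29, and 2 lower, near the 17.1% and 10.6% of all genes, and 0 were lower without vehicle library 1, vehicle library 3 or E2 library 1. Lists of basal, neuroendocrine, fibroblast and leukocyte markers had 2, 5, 2 and 2 tested members, none called by limma or voom and 1, the leukocyte marker CD68 (0.26), at an unadjusted p under 0.05.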

How the data were processed

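RNA-seq libraries were made from total RNA of cells treated for 12 h with a stranded kit, per the labels' protocols. FastQC, Trimmomatic, featureCounts, edgeR and the hg38 build are named in the submitters' processing notes, without versions, and the series' design text names Rsubread. Whether counting used the strand is not given in the sources used here. The labels call the values CPM. The deposited unit is in fact a score, a log2 CPM (0.5 reads added to each count) that was rescaled within each library to a column sum of 1000000. Solving for this factor gave whole reads for 100% of the values in the 6 libraries (tolerance 0.01), from which CPM at the authors' effective sizes was recomputed. Because the deposited unit is a score, no count model was run.

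Log2(CPM + 0.5) was tested with limma 3.58.1 in R 4.3.3, with a mean-variance trend, fitted to the 18 22Rv1 libraries (12 residual degrees of freedom) or, between lines, to all 54, with Benjamini-Hochberg adjustment over all genes tested and a filter of 1 CPM in 3 libraries. The test beyond 1.2-fold was limma's treat. The code was tested on simulated data. Alternatives were scaling to total reads, TMM sizes and cyclic loess, a pseudocount of 2, no filter, voom, a replicate block, other sets of libraries and each library left out. The contrast of E2 effects with and without Enza was added after seeing the data. Replicate numbers did not pair vehicle and E2 libraries (correlations of deviations from group means -0.046, -0.023 and -0.079).

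The gene lists and members were chosen with earlier results of these data known. Named genes were the 14 largest changes in each direction among called genes that have a symbol and a mean above 1 CPM, whose groups did not overlap and whose call was the same under all 4 scalings, a set of known steroid and immediate early targets, and up to 4 genes of smallest p in each list; genes named beyond these were chosen after their values were seen. Some genes that this rule names are not reported here. Symbols, positions and promoter windows came from RefSeq (GRCh38.p14), which matched 18917 of 19225 features, and 11480 of 14866 tested genes had a window.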

Additional observations from a re-analysis of the deposited data

Results flagged for a closer look

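The E2 effect differed between 22Rv1 and another line by at least 1 on the log2 scale, by limma's test of the difference itself with an adjusted p under 0.05, in 31 comparisons of genes named above. In 17 of the 31 the gene was under 1 CPM in all 6 vehicle and E2 libraries of the other line, so that the value is mostly the change in 22Rv1 and says little of E2 in that line. The other comparisons are given first.

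Among genes that rose, the effect on MBOAT2 was larger in 22Rv1 by 1.21 than in LNCaP and by 1.53 than in C4-2. Against C4-2 it was larger by 1.61 for TMCC3, 1.19 for PGC and 1.15 for HERC5. The difference of HERC5 from LNCaP was called too, but at 0.86 it was under the cut of 1. For SLC38A4 the E2 effect was smaller in 22Rv1 than in LNCaP, with a difference of -1.35. Among genes that fell, GABRE differed by -1.07 from LNCaP and -2.0 from C4-2, and EGR1 by -1.12 and -1.14. FOSB and FOS differed from LNCaP by -1.70 and -1.14, and LOC221946 and NFKBIZ from C4-2 by -1.25 and -1.16. Some of these genes lay only just above the cut of 1 CPM. EGR1 was at 1.26 to 2.27 CPM in LNCaP and 0.455 to 1.29 CPM in C4-2. In LNCaP FOSB was at 0.637 to 1.36 CPM and FOS at 0.785 to 1.40 CPM, and in C4-2 LOC221946 was at 0.679 to 1.57 CPM. For these 4 genes too the value is mostly the change in 22Rv1.

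Of the 17, 3 were set against 0 reads in all 6 C4-2 libraries: 1.98 for F3, -1.59 for SLC17A4 and -1.39 for PCDH17. The others against C4-2 were 1.72 for THSD7A, 1.13 for PDE3A, -1.36 for FOSB, -1.63 for EGR3, -1.22 for FOS, -1.10 for LINC00639 and -1.02 for ADH1B. Those against LNCaP were 1.77 for F3, -1.42 for SLC17A4, -1.27 for PCDH17, -1.06 for EGR3, -1.31 for EVX1, -1.22 for LINC00639 and -1.13 for ADH1B. All these genes were chosen for a large change in 22Rv1, which favours such differences.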

How the results depend on the processing

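Of the 138 genes that the naming rule picked, 114 were called with E2 against vehicle. None of the 114 changed direction under any alternative run, and 89 kept their call under all of them. The rule took the leading genes only if their call was the same under all scalings, which are among these runs. It took genes from the lists by smallest p. The stability of the 114 is therefore partly set by the choice and says little of genes in general. Genes named beyond the rule are not counted here. Of the counts, genes called with E2 ranged from 2193 to 3999 with single libraries left out, genes beyond 1.2-fold from 233 to 283, and genes called with Enza in both arms from 851 to 1178. The difference of E2 effects with and without Enza was called in 39 genes at total reads and 28 without the filter on low levels, and in 21 to 350 with single libraries left out. The difference between 22Rv1 and LNCaP ranged from 1330 to 1844 in the same way, and that between 22Rv1 and C4-2 was 2937 at total reads, 2851 after cyclic loess and 2455 to 5062 with single libraries left out. The causes were not tested. With a replicate block, that is with libraries of the same number taken as pairs, E2 against vehicle called 4134 genes and 292 beyond 1.2-fold, E2 with Enza against Enza 1165, the difference of effects 64, and the differences between lines 1787 and 4619. Same-numbered libraries did not vary together, so the numbers gave no pairing. Changes under 1.2-fold are near what 3 libraries a group and the choice of scaling can resolve, and those of genes near 1 CPM are understated by the pseudocount.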

Other observations

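Genes of ion channels and of hormone and prostaglandin signalling outside the lists were also beyond 1.2-fold, and were taken up after their values were seen. KCNMA1, a calcium-activated potassium channel, had 2.12, 2.47 and 1.93 CPM with vehicle and 7.82, 8.05 and 7.89 CPM with E2 (1.66 ± 0.12). KCNN2, a second such channel, had 5.62, 6.07 and 4.75 CPM with vehicle and 13, 13.3 and 14.3 CPM with E2 (1.24 ± 0.11). The adrenergic receptor ADRA2A had 15.3, 17.3 and 19.1 CPM with vehicle and 52.7, 52.7 and 48.1 CPM with E2 (1.54 ± 0.10). In none of these did the groups overlap, which holds for every gene beyond 1.2-fold and for 44.8% of all genes tested. IGF1, insulin-like growth factor 1, had 11.3, 11.1 and 12.1 CPM with vehicle and 34.2, 33.6 and 30.7 CPM with E2 (1.47 ± 0.07), and PTGS2, which makes prostaglandin precursors, had 2.43, 1.45 and 2.12 CPM with vehicle and 6.57, 6.46 and 6.77 CPM with E2 (1.53 ± 0.17). HPGD, which breaks prostaglandins down, rose as well, from 43.3, 43.1 and 45.2 CPM to 102, 104 and 99.7 CPM (1.21 ± 0.05), and SLCO2A1, a prostaglandin transporter, by 1.21 ± 0.17. With Enza in both arms the E2 effects were 1.35 for IGF1, 1.03 for PTGS2 and 1.00 for HPGD.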
